A study of Mus musculus with 16 samples.

Results

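The immunoglobulin heavy chain constant genes encode the part of an antibody that sets its isotype. Of 7 such genes asked for, Ighm (IgM), Ighd (IgD), Ighg1 (IgG1), Ighg2b (IgG2b), Ighg2c (IgG2c), Ighg3 (IgG3) and Igha (IgA), 6 were matched by symbol among the 40324 distinct symbols of the count table. Ighd was not analysed here; rows such as Ighd1-1 belong to diversity segments and were not counted as IgD. The livers came from db/db mice, obese and diabetic animals without a working leptin receptor, in which adeno-associated virus 8 (AAV8) delivered either arcA (8 mice) or, as the control, green fluorescent protein (GFP, 8 mice). Littermates received the virus when about 5 weeks old, livers were collected at 10 weeks, and the labels name neither the sex, the strain background, the promoter of the vector, nor what arcA encodes. All 16 mice carried the db/db genotype and received a virus, so no untreated or lean liver was available for comparison. The genes were chosen by their counts in the arcA and GFP livers, which were known to be lower in arcA, so every difference between arcA and GFP in them is a description with no test.

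A B cell first joins a variable region to the IgM constant gene, and IgD is made from the same long transcript by splicing. After activation, class switch recombination deletes the intervening DNA and places an IgG, IgE or IgA constant gene behind the same variable region. Plasma cells then secrete the antibody in large amounts, so their constant region transcripts can dominate those of resting B cells. In mice, interferon-gamma favours switching to IgG2c (or its allelic counterpart IgG2a in other strains), interleukin-4 favours IgG1 and IgE, and TGF-beta favours IgA and IgG2b.

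All 7 genes lie on the minus strand of chromosome 12 (GRCm38, GENCODE M21), in the order in which they can be switched to. Ighm is at 113418558 to 113422730, followed by Ighd at 113406604 to 113416324, Ighg3 at 113356224 to 113361232, Ighg1 at 113325240 to 113330523, Ighg2b at 113302965 to 113307933, Ighg2c at 113285325 to 113288932 and Igha at 113254830 to 113260236. Each has a secreted and a membrane-anchored transcript in the annotation, and counts per gene do not tell them apart. The 4 IgG genes resemble one another closely, and the hinge, the flexible link between the antigen-binding arms and the stem, differs between them in length and cysteine number. Their hinge exons (exon 2, minus strand, written 5′ to 3′) are shown to make these differences visible; capitals mark the in-frame cysteine codons, whose products can bridge the 2 heavy chains.
Ighg1 hinge (chr12:113329844-113329882): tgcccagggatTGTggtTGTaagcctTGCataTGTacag
Ighg2b hinge (chr12:113307261-113307326): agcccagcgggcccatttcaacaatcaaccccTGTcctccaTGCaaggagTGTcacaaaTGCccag
Ighg2c hinge (chr12:113288263-113288325): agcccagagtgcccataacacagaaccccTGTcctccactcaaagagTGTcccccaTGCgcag
Ighg3 hinge (chr12:113360529-113360576): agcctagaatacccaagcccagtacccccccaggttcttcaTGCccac
The hinge exons run from 39 bases in Ighg1 to 66 bases in Ighg2b and hold 4 (Ighg1), 4 (Ighg2b), 3 (Ighg2c) and 1 (Ighg3) cysteine codons.

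How far reads could be shared between the genes was read from the same sequences. Over the coding part of the secreted transcripts, Ighg2b and Ighg2c were the most alike pair, 85.6% identical, and the CH2 exon of that pair was 94.2% identical, against 77.3% for the hinge exon and 76.6% for the CH3 exon. The other IgG pairs were 73.8% to 75.5% identical, and Ighm and Igha were 44.5% to 48.8% identical to any other gene of the 6. The longest run shared by Ighg2b and Ighg2c is 78 bases of the CH2 exon (chr12:113306869-113306946 in Ighg2b and chr12:113287869-113287946 in Ighg2c), shown because a read that falls within it cannot be placed.
Shared run: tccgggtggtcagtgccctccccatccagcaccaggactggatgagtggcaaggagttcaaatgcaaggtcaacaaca
Of all 50-base windows of the coding sequence, 5.85% in Ighg2b and 5.86% in Ighg2c occur exactly in another of these genes, and 0 in Ighg1, Ighg3, Ighm or Igha. At 100 bases none of the 6 genes shared a window. Read length and the treatment of reads with several placements are not known from the labels, so the split between Ighg2b and Ighg2c is less certain than the others. The reference carries the C57BL/6J allele Ighg2c, and whether these mice carry it or the Ighg2a allele is not in the labels.

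Libraries held 37325610 to 45874797 counts in arcA and 28912563 to 53520828 in GFP livers. Gm42418, a gene that overlaps ribosomal RNA sequence, took 2.45% to 7.37% of counts in arcA and 2.29% to 19.4% in GFP livers, with 11.8%, 18.1% and 19.4% in GFP 2, 3 and 5. Values below are CPM, counts relative to the library size after TMM scaling. In bulk liver, fewer cells of a type and less RNA per cell cannot be told apart. In the fit over 14476 genes with edgeR's quasi-likelihood test (Benjamini-Hochberg adjusted p under 0.05), 6.57% of genes were lower and 4.27% higher in arcA livers. The rises made up 39.4% of these calls, and 24.2% when libraries were scaled on their size alone. The labelled tissue was plain in both groups: 4 hepatocyte markers (Alb, Apoa1, Ttr and Cyp2e1) summed to 62557 to 89568 CPM in arcA and 66162 to 76907 CPM in GFP livers.

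Transcripts of all 6 constant genes were lower on average in arcA livers. Summed over the genes, heavy chain constant counts had a median of 1.48 CPM in arcA livers (range 0.927 to 2.71) and of 122 CPM in GFP livers (range 51.2 to 462). Every arcA liver lay below every GFP liver, and the lowest GFP liver was 18.9 times the highest arcA liver. In counts, 34 to 114 reads per arcA liver and 1911 to 27719 per GFP liver stood behind these sums. Of the 6 genes, 5 passed the filter on low counts, and 5 of 5 were past the threshold in the lower direction, beside the 6.57% of all genes; since that contrast chose them, nothing is read from the count. In 4 of the 6 the groups did not overlap, as for 1.2% of all genes tested.

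Ighg1, the constant gene of IgG1, was the most abundant in counts in 7 of 8 GFP livers. It had 0 to 8 counts per arcA liver, with a lowest, median and highest level of 0, 0.0514 and 0.197 CPM, and 450 to 19193 counts per GFP liver, with 12.1, 68.2 and 320 CPM. No arcA liver came near any GFP liver, and arcA 2, 4 and 8 had no read of the gene. The fitted log2 fold change was -10.41 (SE 0.90) for arcA over GFP, a difference that rests on 24 arcA reads in all. GFP 7 alone held 49.9% of the GFP counts, and the GFP mean was 104 ± 98.5 CPM (SD, n = 8) with it and 72.7 ± 49.0 CPM without it. Ighg2c, the IgG2c constant gene, followed. It had 0 to 8 counts and 0, 0.0359 and 0.190 CPM (lowest, median, highest) in arcA livers, and 468 to 5085 counts and 18.7, 31.6 and 84.8 CPM in GFP livers. Its GFP livers spread less than those of Ighg1, 4.54-fold between the lowest and the highest against 26.5-fold. Again arcA 2, 5 and 8 had no read and the groups did not overlap, with a fitted log2 fold change of -9.27 (SE 0.52).

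Ighg2b, for IgG2b, had 0, 0.0685 and 0.355 CPM in arcA livers and 4.34, 15.2 and 27.5 CPM in GFP livers. The highest arcA livers were arcA 1 and arcA 3, with 13 and 15 reads, and arcA 5, 6 and 8 had none. Its fitted log2 fold change was -6.86 (SE 0.63), and the lowest GFP liver was 12.2 times the highest arcA liver. Ighg3, for IgG3, was nearly absent from both groups. It had 0 reads in all 8 arcA livers and 76 reads over the 8 GFP livers, of which GFP 1 held 36 and GFP 2 and 3 none. It fell short of the filter on low counts and was not tested; taking 3 counts for the arcA group as a whole as the floor, it was at least 26.2-fold lower in arcA livers, a bound that covers counting error only and is 16.1-fold without GFP 1. Ighe, the IgE gene, outside the 6, had 0 reads in arcA and 3 in GFP livers, so no IgE level could be read at this depth.

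Igha, for the IgA of mucosal surfaces and bile, remained readable in every arcA liver. It had 9 to 30 counts and 0.249, 0.428 and 0.698 CPM (lowest, median, highest) in arcA livers, and 79 to 1515 counts and 2.12, 10.4 and 30.5 CPM in GFP livers. The groups did not overlap, but the lowest GFP liver, GFP 8, was only 3.03 times the highest arcA liver. Its fitted log2 fold change was -4.91 (SE 0.58). Ighm, for the IgM that unswitched B cells carry, differed least. It had 21 to 71 counts and 0.497, 0.918 and 1.75 CPM in arcA livers, and 40 to 263 counts and 1.45, 2.35 and 4.38 CPM in GFP livers. Here the groups overlapped: 7 of 8 arcA livers lay below the lowest GFP liver, and arcA 6, at 1.75 CPM, lay above GFP 3 and GFP 4. The fitted log2 fold change was -1.33 (SE 0.27). The mean CPM of GFP over that of arcA was thus 2.5 for Ighm, 30.3 for Igha, 118 for Ighg2b, 668 for Ighg2c and 1425 for Ighg1. Without arcA 3, which held 8 of the 19 arcA reads of Ighg2c, the ratio for Ighg2c was 1009.

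**Figure D1:**
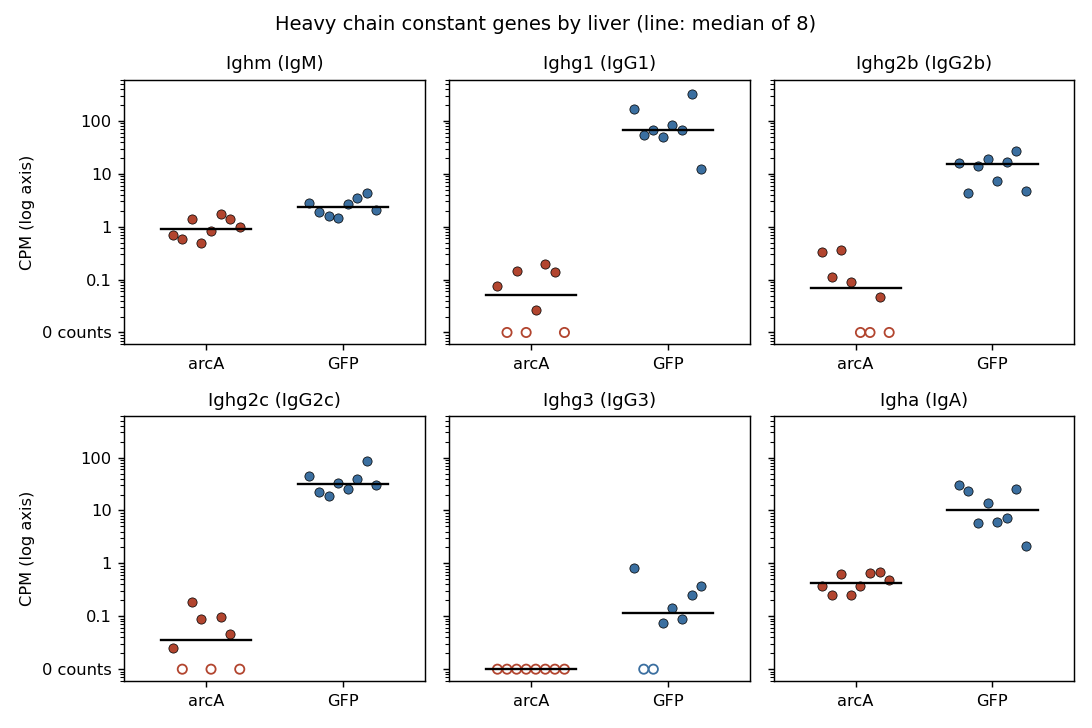
Level of each heavy chain constant gene in every liver (CPM on a log axis; arcA left, GFP right; black line, median of 8; open circles at the bottom, libraries with 0 counts). Ighm overlaps between the groups, at 0.497 to 1.75 CPM in arcA and 1.45 to 4.38 CPM in GFP livers, while Ighg1, Ighg2b, Ighg2c and Igha do not overlap.

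The order of the isotypes differed between the groups. To compare genes, CPM was divided by the length of the secreted transcript (1076 bases in Ighg1 to 1493 in Ighm). By median CPM per kilobase the order in arcA livers was Ighm (0.615), Igha (0.389), Ighg2b (0.0615), Ighg1 (0.0478), Ighg2c (0.0323) and Ighg3 (0). Ighm was above Igha, and Igha above Ighg2b, in 8 of 8 arcA livers. The 3 IgG genes with reads did not differ beyond their spread, each exceeding the next in only 4 of 8 livers. In GFP livers the order was Ighg1 (63.4), Ighg2c (28.4), Ighg2b (13.6), Igha (9.46), Ighm (1.57) and Ighg3 (0.106). Ighg1 exceeded Ighg2c in 7 of 8 GFP livers, Ighg2c exceeded Ighg2b in 8, Ighg2b exceeded Igha in 6, and Igha exceeded Ighm in 8. With the length of all annotated exons instead, which is longer for genes with a long membrane exon, Ighg1 exceeded Ighg2c in 5 of 8 GFP livers, so those neighbours are not separated beyond the choice of length.

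Shares of the summed heavy chain constant counts show the same contrast within each library, free of library scaling. Ighm made up 59.0% ± 8.06 of these counts in arcA livers (SD, n = 8; range 45.8% to 67.6%) and 1.90% ± 1.01 in GFP livers (range 0.949% to 3.98%). It was the largest share in 8 of 8 arcA livers and in 0 of 8 GFP livers. Igha made up 27.4% ± 3.07 in arcA livers and 8.68% ± 5.99 in GFP livers. The lowest arcA share, 23.7% in arcA 3, was above the highest GFP share, 21.5% in GFP 2. That arcA 3 share rests on 27 of 114 reads, with a Clopper-Pearson 95% interval of 16.2% to 32.6%. The gap to GFP 2 thus lies within counting error. The 4 IgG genes together made up 13.6% ± 10.3 in arcA livers (range 0% to 28.8%) and 89.4% ± 5.73 in GFP livers (range 76.7% to 93.6%). Division by the secreted length left these at 15.8% and 90.0%. The arcA shares rest on few reads: in arcA 2, with 34 reads, the Clopper-Pearson 95% interval of the Ighm share was 43.6% to 77.8%, and in arcA 8, where 0 of 68 reads fell on an IgG gene, a count of 0 allows an IgG share of up to 5.28% by the same interval. With counts summed over the group, the IgG share was 14.1% of 573 reads in arcA (95% interval 11.4% to 17.3%) and 90.7% of 62594 reads in GFP livers (90.4% to 90.9%). Intervals cover counting error only, and 69.8% of all counts from 1 to 20 in the table were even; whether both mates of a read pair were counted was not tested, and the intervals would then be too narrow.

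**Figure D2:**
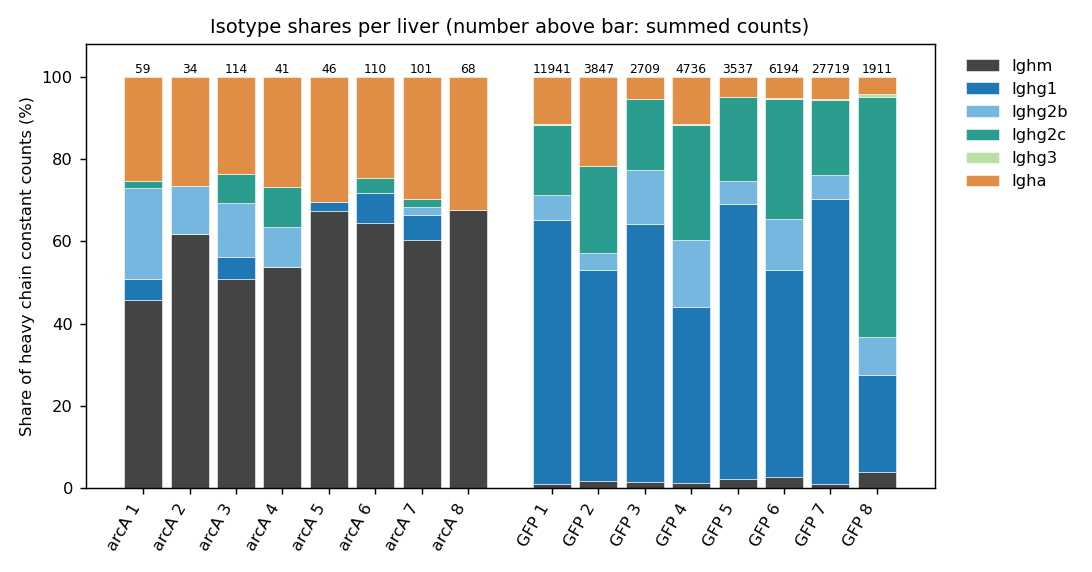
Share of each heavy chain constant gene in the summed counts of the 6 genes (stacked bars, %; 1 bar per liver, arcA left, GFP right; the number above a bar is the summed count). Ighm is the largest share in all 8 arcA livers, on 34 to 114 reads each, and Ighg1 is the largest in 7 of 8 GFP livers, with Ighg2c ahead in GFP 8.

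The GFP livers were not alike in isotype. Ighg1 ranged from 23.5% of heavy chain counts in GFP 8 to 69.2% in GFP 7, and Ighg2c from 17.1% in GFP 1 to 58.5% in GFP 8. The ratio of Ighg1 to Ighg2c counts was 0.403 in GFP 8, and in the other GFP livers it lay between 1.52 (GFP 4) and 3.77 (GFP 7). Ighg2b lay between 4.08% (GFP 2) and 16.3% (GFP 4), and Igha between 4.13% (GFP 8) and 21.5% (GFP 2). These differences are far larger than the counting intervals: the 95% interval of the Ighg2c share was 56.2% to 60.7% in GFP 8 and 28.2% to 30.5% in GFP 6, the next highest. GFP 8 also had the lowest heavy chain sum, 51.2 CPM, and GFP 7 the highest, 462 CPM. The highest Ighm share among GFP livers, 3.98%, was that of GFP 8 too, while its Ighm level, 2.04 CPM, was inside the range of the other GFP livers.

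The light chains, which pair with any heavy chain isotype, and the joining chain, which links IgA and IgM units, were outside the rule and were tested. All 3 with a row fell in arcA livers, beside 6.57% of all genes. Igkc, the kappa constant gene, had a median of 0.993 CPM in arcA livers (range 0.756 to 1.75) and of 67.5 CPM in GFP livers (43.9 to 262), a log2 fold change of -6.53 (SE 0.46, edgeR adjusted p = 1.56e-06). Jchain had a median of 0.282 CPM (0.0452 to 0.466) in arcA and of 11.5 CPM (5.87 to 31.7) in GFP livers, a log2 fold change of -5.66 (SE 0.45, edgeR adjusted p = 2.92e-06). Iglc2, a lambda constant gene, had 26 reads over the arcA group and 353 over the GFP group, with a log2 fold change of -3.59 (SE 0.48, edgeR adjusted p = 9.69e-05). None of the 3 overlapped between the groups, as for 1.2% of all genes tested. Iglc2 reached the cutoff of the low-count filter, 0.246 CPM, in 0 arcA and 8 GFP livers, and Jchain in 5 arcA and 8 GFP livers, so a fall was favoured by their inclusion and their p-values are no independent support. Light chain counts here are the sum of Igkc and Iglc2, without other lambda constant genes. Kappa made up 93.5% ± 4.55 of this sum in arcA livers and 99.0% ± 0.457 in GFP livers (SD, n = 8 each). The lambda part in arcA livers was only 0 to 8 Iglc2 counts per liver. Light chain counts per heavy chain count were 0.745 ± 0.322 in arcA and 0.611 ± 0.115 in GFP livers, a smaller distance than the spread among arcA livers.

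Within the GFP group, where the choice of genes played no part, the heavy chain sum was set against other genes over the 8 livers on the log2 CPM scale. It moved with the light chain sum (Pearson r = 0.967, exact permutation p = 0.000471, adjusted p = 0.00298; Spearman rho = 0.833, exact p = 0.0154, adjusted p = 0.0384). It also moved with Jchain (r = 0.941, exact permutation p = 0.000893, adjusted p = 0.00298; rho = 0.833, exact p = 0.0154, adjusted p = 0.0384). The relation to Mzb1, a chaperone of plasma and marginal zone B cells, was of like size (r = 0.933, exact permutation p = 0.000595, adjusted p = 0.00298; rho = 0.881, exact p = 0.00724, adjusted p = 0.0384). Without GFP 7 and GFP 8, the livers farthest from the median, r was 0.958 for the light chains (exact permutation p = 0.0264, n = 6), 0.899 for Mzb1 (exact p = 0.0333) and 0.811 for Jchain (exact p = 0.05, which did not pass). These are 3 of 10 relations computed, all adjusted together.

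The other relations were weaker or rested on the extreme livers. Cd79a, part of the B cell receptor on resting B cells, had r = 0.864 (exact permutation p = 0.00952, adjusted p = 0.0190; rho = 0.762, exact p = 0.0368, adjusted p = 0.0735), but r was 0.417 without GFP 7 and 8. Cd8a, of cytotoxic T cells, had r = 0.827 (exact permutation p = 0.00747, adjusted p = 0.0187; rho = 0.857, exact p = 0.0107, adjusted p = 0.0384), and 0.676 without those livers (exact p = 0.119, n = 6). The Cd79a relation thus rests on GFP 7 and 8, while for Cd8a the test no longer passed over 6 livers. Leaving out GFP 7 or GFP 8 alone raised the adjusted p to 0.140 and 0.0635 for Cd79a and to 0.140 and 0.0501 for Cd8a. Cd3e (r = 0.518, rho = 0.595), the macrophage gene Adgre1 (r = 0.443, rho = 0.190) and Gm42418 (r = -0.123, rho = -0.0714) did not pass (exact permutation adjusted p = 0.240, 0.294 and 0.767 for r, and 0.165, 0.738 and 0.882 for rho). They had r = 0.576 (Cd3e), -0.0850 (Adgre1) and -0.598 (Gm42418) without GFP 7 and 8. The IgG sum had r = 0.708 and rho = 0.738 with Ighm (exact permutation p = 0.0443 and 0.0458) and r = 0.714 and rho = 0.667 with Igha (exact p = 0.0453 and 0.0831), which did not pass (adjusted p = 0.0647 for both r, and 0.0764 and 0.119 for rho). Without GFP 7 and 8 these were 0.559 and 0.367, so joint variation of the isotypes from liver to liver was not shown.

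**Figure D3:**
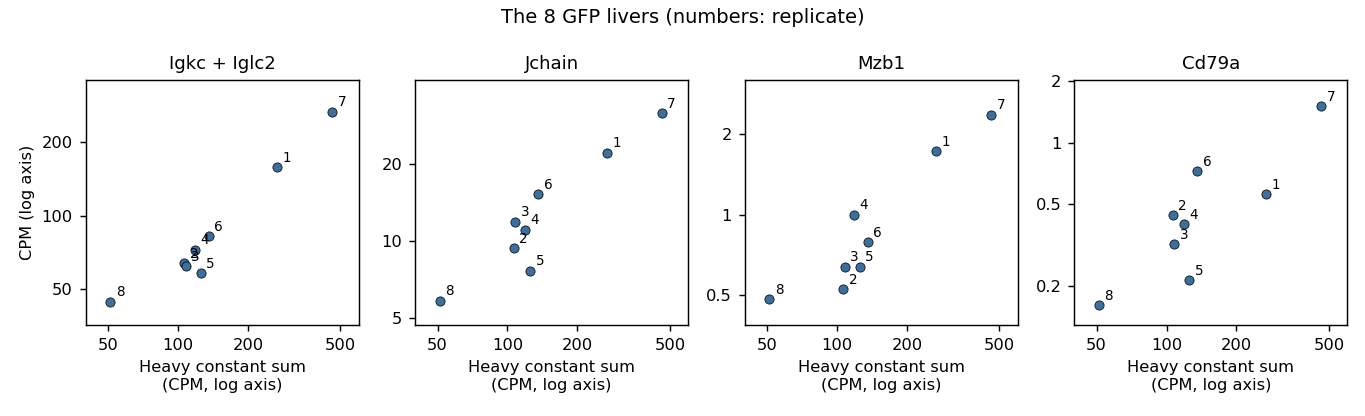
Summed heavy chain constant level against light chain constant, Jchain, Mzb1 and Cd79a levels in the 8 GFP livers (CPM, both axes log; numbers, replicate). Light chains, Jchain and Mzb1 follow the heavy chain sum across the livers, with r from 0.933 to 0.967, and GFP 7 and GFP 8 are the extremes.

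Among the genes most like the heavy chain sum over the 8 GFP livers, immunoglobulin and predicted genes aside, were Lrrc39 (r = 0.973), Il10rb (0.958), Olfml3 (0.958) and Zfyve26 (0.951), picked as the top of 12192 genes for this likeness and given as a description with no test. The immunoglobulin genes most like it were Igkc (r = 0.968), Ighv8-12 (0.744) and Igkv12-46 (0.667). In arcA livers Lrrc39 had a log2 fold change of -1.22 (SE 0.24, edgeR adjusted p = 0.00277) and Olfml3 of -0.82 (SE 0.14, edgeR adjusted p = 0.000678). Il10rb and Zfyve26 did not pass, at -0.22 and 0.05 (edgeR adjusted p = 0.315 and 0.786).

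B cell surface genes fell in arcA livers by far less than the IgG genes. Of 20 B cell genes, 7 passed the filter on low counts and 7 of these fell, beside 6.57% of all genes. Their median log2 fold change was -1.23, beside 0.01 over all genes tested. On the arcA livers alone 4 of the 7 would have missed the filter, Cd22 and Cd79b among them, which favoured a fall, so this count supports nothing by itself. Cd22, a B cell inhibitory receptor, fell by 1.76 on the log2 scale (SE 0.33, edgeR adjusted p = 0.00185). Cd79b fell by 1.46, the tetraspanin gene Cd37 fell by 1.05 and Ly6d, averaging 48.7 CPM in arcA and 113 CPM in GFP livers, far above the other genes of the list, fell by 1.21 (edgeR adjusted p = 0.00719, 0.00671 and 0.0043). For each of the 4, all 8 arcA livers were under the median of the GFP livers. Whether the Ly6d reads, so far above those of the other listed genes, came from B cells was not tested.

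Plasma cell genes moved unevenly. Of 16 listed, 15 had a row, 9 were tested, 3 fell and 1 rose, beside 6.57% and 4.27% of all genes, with a median of -0.08. Leaving out any of arcA 1, 2, 3, 4, 5, 6 or 8 gave 5 or 6 that fell, and leaving out GFP 6 gave 2. The filter on low counts was run again in each of these fits, so listed genes untested in the main fit could enter. These counts need not be over the same genes. Mzb1 had a median of 0.114 CPM (0 to 0.225) in arcA and of 0.714 CPM (0.482 to 2.37) in GFP livers and fell by 3.17 (SE 0.46, edgeR adjusted p = 0.000235), but it reached the filter's cutoff in 0 arcA and 8 GFP livers, which favoured a fall. Fkbp11, a secretory pathway isomerase, fell by 0.44 (edgeR adjusted p = 0.0156). Cd38 fell by 0.45 (edgeR adjusted p = 0.0446), a call lost in 9 of the 16 leave-one-out fits (highest adjusted p 0.106). Sdc1, which hepatocytes express in quantity, rose by 0.37 (edgeR adjusted p = 0.0237; 0.051 without GFP 7). Summed over Mzb1, Jchain, Tnfrsf17 and Derl3, defining plasma cell markers, levels were 0.246 to 2.25 CPM in arcA and 6.59 to 35.0 CPM in GFP livers. Most of the GFP sum was Jchain, and Derl3 averaged 0.517 CPM in arcA and 0.467 CPM in GFP livers. Below the filter, the plasma cell regulators Prdm1 and Irf4 had 34 and 29 reads over the arcA group and 160 and 112 over the GFP group. The plasma cell receptor Tnfrsf17 had 2 reads in arcA and 9 in GFP livers.

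Of 22 genes of class switch recombination and its repair, 19 were tested and 2 fell, beside 6.57% of all genes, with a median of -0.0026. They were Shld1 and Lig4, which fell by 0.37 and 0.33 (edgeR adjusted p = 0.0237 and 0.0301). Shld1 lost its call without GFP 7 (adjusted p = 0.0539), and Lig4 in 7 leave-one-out fits (highest adjusted p 0.0618). With library size alone neither passed (edgeR adjusted p = 0.0625 and 0.0914), and most of these genes act in DNA repair in any cell. Apex1 had a log2 fold change of -0.18 (edgeR adjusted p = 0.238). Of 8 germinal centre B cell genes, 4 were tested and 0 passed with edgeR; Mybl1, Fas, S1pr2 and Bcl6 had log2 fold changes of -0.56, 0.13, 0.11 and 0.25, none with an unadjusted p under 0.05, and none passed with DESeq2.

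Most cytokines that direct isotype choice were below the filter. Only Tgfb1 of 12 was tested, and it fell by 0.61 (SE 0.14, edgeR adjusted p = 0.00775). Ifng had 2 reads over the arcA group and 18 over the GFP group, Il4 had 38 and 41, Il21 had 0 and 6, and Cd40lg, a T cell signal for switching, had 4 and 4. Of 15 receptors and transcription factors of switching, 12 were tested and 7 fell, beside 6.57% of all genes, with a median of -0.21. On the arcA livers alone 3 of the 12, Runx3, Batf and Il21r, would have missed the filter, which favoured a fall. This count therefore supports nothing by itself. Runx3 fell by 1.70 and Batf by 1.74 (edgeR adjusted p = 0.00182 and 0.00246), transcription factors used by T cells as well that each reached the filter's cutoff in 2 arcA and 8 GFP livers, which favoured a fall, and Tgfbr2 fell by 0.53 (edgeR adjusted p = 0.00422).

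On the receiving side, 4 of 10 tested immunoglobulin receptor and transport genes fell, beside 6.57% of all genes, with a median of -0.08. They were the IgG receptor genes Fcgr3, Fcgr4 and Fcgr1 and the shared signalling chain gene Fcer1g, which fell by 0.72, 0.80, 0.91 and 0.77 (edgeR adjusted p = 0.00406, 0.0121, 0.0336 and 0.0119). Fcgr1 lost its call in 8 leave-one-out fits (highest adjusted p 0.0865). Another IgG receptor gene, Fcgr2b, averaged 10.2 CPM in arcA and 11.6 CPM in GFP livers. It did not pass, with a log2 fold change of -0.18 (edgeR adjusted p = 0.461). Pigr, which carries IgA and IgM across epithelia, averaged 1435 ± 181 CPM in arcA and 1298 ± 208 CPM in GFP livers, and Fcgrt, the neonatal IgG receptor gene, 159 ± 7.16 and 145 ± 6.98 CPM (SD, n = 8 each; edgeR adjusted p = 0.398 and 0.0702).

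Genes of some other cell types were also lower in arcA livers. All 7 tested of 10 T cell markers fell, beside 6.57% of all genes, with a median of -3.06. On the arcA livers alone 7 of the 7 would have missed the filter, which favoured a fall, so the count supports nothing by itself. Filter aside, Cd3d, Cd3e, Cd3g and Cd8a summed to 0.225 to 0.757 CPM in arcA and 3.98 to 7.70 CPM in GFP livers. Examples were Cd8b1, Cd8a, Cd3g and Lck, which fell by 3.82, 4.84, 3.48 and 2.70 (edgeR adjusted p = 4.9e-08, 1.33e-07, 2.24e-06 and 2.92e-06). The list of 9 markers of Kupffer cells and macrophages had 4 that fell, beside 6.57% of all genes, with a median of -0.68. That count was 1 without GFP 7 and 9 without arcA 3. The 4 were Lyz2 and Clec4f (-0.86 and -0.55, edgeR adjusted p = 0.00823 and 0.0271) and Cd68 and Timd4 (-0.83 and -0.68, edgeR adjusted p = 0.0246 and 0.048). Without GFP 7 the adjusted p was 0.0599 for Clec4f, 0.0522 for Cd68, and Timd4 lost its call in 13 of the 16 leave-one-out fits. Their 4 defining genes, Adgre1, Clec4f, Csf1r and Timd4, summed to 43.2 to 128 CPM in arcA and 89.9 to 143 CPM in GFP livers. Of 15 plasma cell homing genes, 8 were tested and 4 fell, beside 6.57% of all genes, with a median of -0.23; Cxcr3, at the filter's cutoff in 1 arcA and 7 GFP livers, was favoured to fall. They were the adhesion molecule gene Vcam1 (-1.62), the receptor gene Cxcr3 (-2.12) and the integrin genes Itgb7 (-1.22) and Itga4 (-0.53; edgeR adjusted p = 1.52e-05, 0.000954, 0.00254 and 0.0253). The call of Itga4 was lost without GFP 6 (adjusted p = 0.0581).

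Markers of spleen and lymph node stroma stayed low in both groups. Cxcl13, Ccl19, Ccl21a and Madcam1 summed to 0.244 to 2.99 CPM in arcA and 0.167 to 0.719 CPM in GFP livers, and Ccl21a was at 0 in all 16 livers. Only Cxcl13 of 8 was tested, with a log2 fold change of 0.77 (edgeR adjusted p = 0.460), which was -0.22 without arcA 3. Of 8 hepatocyte markers, 7 were tested and 1 rose (2 without arcA 8), beside 4.27% of all genes. It was Cyp2e1, which rose by 0.37 (edgeR adjusted p = 0.00897), and the list median was 0.21. Ttr, Apoa1 and Alb had log2 fold changes of 0.28, -0.84 and 0.18 (edgeR adjusted p = 0.0697, 0.088 and 0.187). The part of T cell, macrophage or B cell abundance in the isotype levels was not tested.

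**Figure D4:**
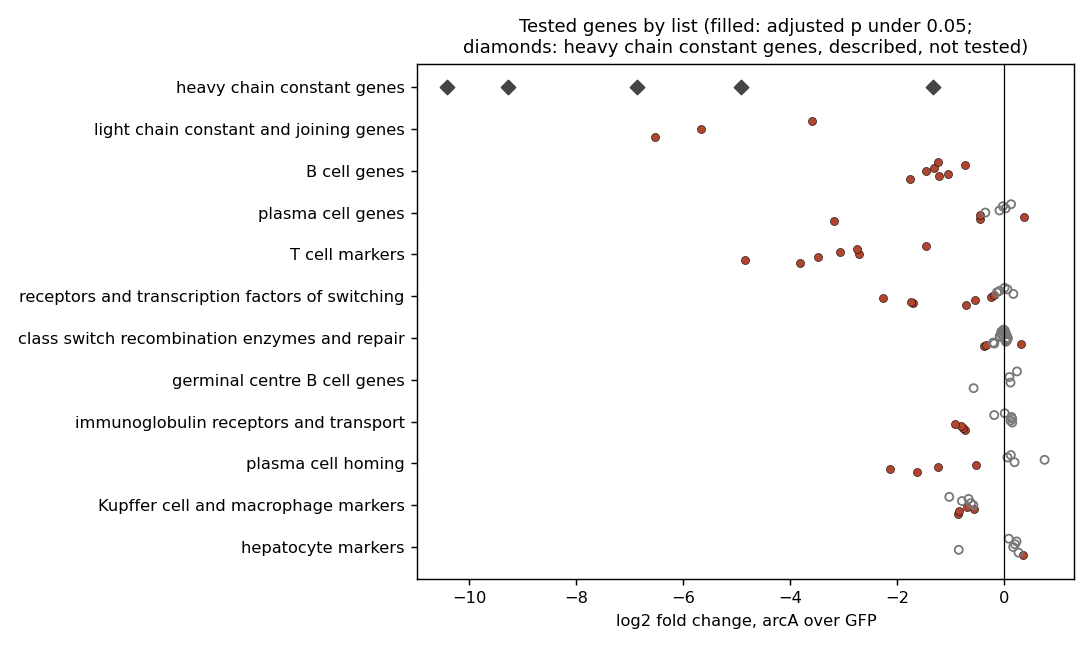
Log2 fold change (arcA over GFP) of every tested gene of 11 lists, with the 5 tested heavy chain constant genes on top (filled circles, edgeR adjusted p under 0.05; open circles, not past it; diamonds, described and not tested). The heavy chain constant genes spread from -10.41 (Ighg1) to -1.33 (Ighm), and the 7 tested B cell genes lie between -1.76 and -0.73.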

How the data were processed

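The authors deposited a table of raw counts, with gene symbols in rows and the 16 liver libraries in columns. RNA extraction used Trizol and selection used oligo-dT, per the labels' protocols. Per the submitters' processing notes, bcl2fastq, STAR 2.5.1a and featureCounts 1.4.6-p5 (Subread) were used on GRCm38; the annotation release, the strand setting and how mates were treated are not stated there, so antisense or overlapping reads cannot be told apart. Of 40757 lines, 348 exact copies were removed and repeated symbols were summed. From these counts, edgeR 4.0.16 (R 4.3.3, TMM, filterByExpr, robust quasi-likelihood F test, group as the only term) tested 14476 genes. The heavy chain genes, the 14 gene lists and the alternatives were chosen with earlier results of these data known; named genes are the members, the light and joining chains, up to 4 genes of smallest p per list, and the genes most like the heavy chain sum with a GFP mean of at least 1 CPM, some of which are not reported here. For log2 CPM a prior count of 2 was used. Correlations used exact permutation of pairings, two-sided, and shares a Clopper-Pearson 95% interval. Sequences and lengths came from GENCODE M21. Alternatives were RLE or no scaling, other filters, DESeq2 1.42.0, a replicate block, libraries left out, other lengths and a prior count of 0.5; division by the secreted transcript length was added after seeing the data. The edgeR fit was also run on simulated counts, with known changes placed only in genes averaging at least 1 CPM. That run does not cover changes in genes below that level, such as Cd22, Runx3 and Batf, and its outcome is not reported here. Libraries of 1 group differed far beyond counting noise (chi-square per gene 19.6 to 526 over 56 pairs). That mice are separate animals comes from the labels' wording; if libraries shared an animal, p-values would measure technical spread. The list of other heavy chain constant genes had only Ighe, with too few reads to test.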

Additional observations from a re-analysis of the deposited data

Results flagged for a closer look

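In 36 sets of 8 livers (levels, shares and chain ratios of the heavy chain genes), 7 values stood apart by Dixon's criterion. Its nominal rate of about 1 in 20 holds for independent, normally distributed sets. These sets share counts and the levels are on the unlogged CPM scale, so nothing is read from the number of flags. All were in the GFP group. GFP 8 stood apart in 3 of them: its Ighg2c share of heavy chain counts was 58.5%, against 29.4% in the next liver; its Ighg3 share was 0.733%, against 0.301%; and it had 0.872 light chain counts per heavy chain count, against 0.611. GFP 2 stood apart in the Igha share, 21.5% against 11.6%, and so in the IgG share, 76.7% against 87.2% in the next lowest liver. The Ighg2c level of GFP 7 was 84.8 CPM, against 45.8 CPM in GFP 1. The Ighg3 level of GFP 1 was 0.806 CPM, against 0.375 CPM in GFP 8, on 36 and 14 reads.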

How the results depend on the processing

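The log2 fold changes of the 5 tested heavy chain genes kept their sign and moved by less than the spread between livers in every alternative run. Without 1 library they ranged from -10.80 to -9.90 (Ighg1), -9.83 to -8.98 (Ighg2c), -7.37 to -6.64 (Ighg2b), -5.09 to -4.65 (Igha) and -1.50 to -1.17 (Ighm). The Igha share in arcA livers was 21.5% per exon length and 32.6% per secreted length. Genes higher in arcA numbered 255 with library size alone, 407 with 1 CPM in at least 8 libraries, 369 without GFP 2, 3 and 5, and 389 (without GFP 2) to 638 without 1 library; genes lower numbered 731 to 1046 without 1 library. Plasma cell genes that fell numbered 6 with no filter and 2 to 6 without 1 library; B cell genes that fell numbered 3 with the 1 CPM filter. With library size alone, the relations of IgG with Ighm and Igha passed (r = 0.745 and 0.738). Without 1 GFP liver, r was 0.702 to 0.915 for Cd79a, 0.710 to 0.898 for Cd8a and 0.528 to 0.889 for IgG with Igha, which passed without GFP 2; the cause was not tested. Same-numbered arcA and GFP livers share only a number (r of their deviations -0.0487 to 0.159; 1 of 8 arcA livers correlated best with its own number). With the replicate block, 876 genes were lower and 592 higher, and Cd38, Clec4f and Itga4 did not pass (adjusted p = 0.07, 0.0603 and 0.0598). Without GFP 2, 3 and 5, calls of Cd38, Cd68, Clec4f, Timd4, Fcgr1 and Itga4 were lost (adjusted p = 0.0568 to 0.117), and with library size alone those of Cd38, Clec4f, Timd4, Shld1 and Lig4 (0.0511 to 0.0914). Depth limits the arcA shares, at 34 to 114 reads per liver.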

Other observations

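Cxcl13, the chemokine that draws B cells into follicles, had 124 of the 219 counts of the arcA group in arcA 3 alone. Over the GFP group it had 118 counts. Derl3, an endoplasmic reticulum gene of plasma cells, had 178 counts over the arcA group, 81 of them in arcA 8, and 159 over the GFP group, with a log2 fold change of 0.14 (edgeR adjusted p = 0.926). The levels of Derl3 in the arcA livers, 0 to 1.75 CPM, covered those in the GFP livers, 0.111 to 0.806 CPM.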
